A study of Mus musculus with 8 samples.

Results

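CREBH, encoded by *Creb3l3*, is a membrane-bound transcription factor of the hepatocyte, and it is described here together with 8 apolipoprotein genes and *Mttp*, which encodes the microsomal triglyceride transfer protein. The 10 genes were taken by symbol from a set list, and all 10 were found among the 23337 gene symbols of the count files and among the 14328 genes that passed the filter on low counts. Liver RNA-seq was performed on 12-week-old C57BL/6 mice, labelled either WT or HRD1Alb. In HRD1Alb mice, Alb-Cre, which is driven by the albumin promoter and is active in hepatocytes from early liver development, deletes the floxed gene of the endoplasmic reticulum ubiquitin ligase HRD1, listed in the files as *Syvn1*. Mice of each genotype were either fasted overnight or refed for 4 h after such a fast. Each of the 4 groups held 2 samples, which made 8 in all. The study's control mice for this line carried the floxed alleles without Cre, while the labels call the samples used here WT only. The labels do not say how many mice stood behind a sample or whether samples came from separate animals, so the p-values measure only the spread between these samples. The comparisons ask how HRD1 deletion and feeding each went with the mRNA levels of the apolipoprotein system.

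CREBH is held in the membrane of the endoplasmic reticulum, travels to the Golgi when it is activated, for example during fasting, and is cut there so that its amino-terminal part can enter the nucleus. Its known target genes in liver include *Apoa4*, *Apoa5*, *Apoc2* and *Fgf21*. Apolipoproteins are the protein parts of plasma lipoproteins. ApoB is the structural protein of very-low-density lipoprotein (VLDL), and MTP loads lipid onto it in the endoplasmic reticulum, while ApoA-I and ApoA-II are the main proteins of high-density lipoprotein (HDL). ApoC-II and ApoA-V promote the hydrolysis of triglyceride by lipoprotein lipase, ApoC-III opposes it, and ApoE is the ligand by which remnant particles are taken up.

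Total counts per library ranged from 40210576 to 49117080, and levels are given as CPM, the depth-scaled count of a gene, with library totals adjusted by the TMM method with factors from 0.837 to 1.22. The 2 refed libraries labelled HRD1Alb stood apart from each other. Their Spearman's rho across genes was 0.955, against 0.990 to 0.995 for the other replicate pairs, and within this pair longer transcripts had lower levels in replicate 2 relative to replicate 1 (rho of the log2 ratio with transcript length across 12968 genes, -0.59, against -0.11 to 0.037 in the other pairs). Calls and log2 fold changes of the 10 genes in refed HRD1Alb liver are therefore also given without replicate 2. *Syvn1* was at 111 and 99.8 CPM in fasted WT, 32.6 and 31.5 CPM in fasted HRD1Alb, 637 and 305 CPM in refed WT, and 453 and 132 CPM in the refed libraries labelled HRD1Alb. The refed library labelled HRD1Alb replicate 1 thus lay between both refed WT libraries. In fasted liver *Syvn1* was lower in both HRD1Alb libraries than in both WT libraries (log2 fold change -1.72, SE 0.561, adjusted p = 0.170 in edgeR). In refed liver it did not separate the labels. Counts per gene include exons that the deletion may leave in place, so they do not settle whether refed replicate 1 carried the deletion. Whether its label holds was not tested, and the refed group is called by its label. The summed level of 9 hepatocyte markers was 140873 to 152618 CPM in fasted WT and 100091 to 101325 CPM in fasted HRD1Alb liver, and 110401 to 120497 CPM in refed WT and 73247 to 107725 CPM in refed HRD1Alb liver. The sum of 7 Kupffer cell and macrophage markers was 91.1 to 102 CPM in fasted WT and 239 to 325 CPM in fasted HRD1Alb liver, and 105 to 106 CPM in refed WT and 215 to 463 CPM in refed HRD1Alb liver. For 6 stellate cell and fibroblast markers the sum was 176 to 351 CPM in fasted WT and 429 to 438 CPM in fasted HRD1Alb liver. In refed liver that sum was 163 to 200 CPM in WT and 348 to 480 CPM in HRD1Alb. The part of these shifts in the results on the apolipoprotein genes was not tested, and in whole liver fewer cells of a type and less RNA per cell cannot be told apart. Enterocytes also express several of the 10 genes. Of 8 enterocyte markers, 6, including *Lct*, *Sis* and *Cdx2*, were at or near 0 in every library. The other 2, *Vil1* and *Fabp2*, were detected. The sum of all 8 was 178 to 251 CPM in fasted WT and 102 to 112 CPM in fasted HRD1Alb liver. In refed liver the sum was 189 to 191 CPM in WT and 69.7 to 194 CPM in HRD1Alb.

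To show where CREBH and related factors could be read in the DNA, windows around the RefSeq start site (GRCm38.p6) were searched on both strands. They reach from before the start site into transcribed sequence, and an AGGTCA match of *Apoc2* lies 42 bases after the start site. Windows of a fixed length were given for 9 of the 10 genes, 14 in all, since *Apoa2*, *Apoa5*, *Apoe* and *Creb3l3* have more than 1 start site. The letters searched were TGACG (the core of cAMP response elements), the longer TGACGT, and CCACG (part of the endoplasmic reticulum stress element), AGGTCA (a nuclear receptor half-site), CAAAGTCCA (an HNF4 site), GTAAACA (a forkhead site) and CACGTG (an E-box). TGACG is contained in TGACGT, and CCACG can overlap CACGTG. The stretches below run 5′ to 3′ on the gene's own strand, end before the first annotated exon, and carry matches in capitals. The first is shown because *Creb3l3* encodes the factor itself, the second because *Apob* had the largest genotype difference in refed liver in the fit to all 8 samples (not without refed HRD1Alb replicate 2 or with length offsets), the third because *Apoa5* had the largest difference between refed and fasted liver in that fit, and the fourth because *Apoa2* had matches of both a TGACG and a forkhead kind.
*Creb3l3*, chr10:81098875-81099122, minus strand: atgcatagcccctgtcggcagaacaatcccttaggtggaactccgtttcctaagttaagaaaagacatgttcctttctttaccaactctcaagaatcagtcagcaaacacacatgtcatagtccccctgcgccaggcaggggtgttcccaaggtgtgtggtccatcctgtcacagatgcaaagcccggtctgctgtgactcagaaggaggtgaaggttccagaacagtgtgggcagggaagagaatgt
*Apob*, chr12:7977427-7977647, plus strand: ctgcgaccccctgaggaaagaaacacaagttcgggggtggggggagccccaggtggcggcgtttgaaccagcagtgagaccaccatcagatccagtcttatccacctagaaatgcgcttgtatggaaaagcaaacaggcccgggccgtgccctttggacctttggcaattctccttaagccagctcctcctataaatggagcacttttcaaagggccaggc
*Apoa5*, chr9:46268358-46268607, plus strand: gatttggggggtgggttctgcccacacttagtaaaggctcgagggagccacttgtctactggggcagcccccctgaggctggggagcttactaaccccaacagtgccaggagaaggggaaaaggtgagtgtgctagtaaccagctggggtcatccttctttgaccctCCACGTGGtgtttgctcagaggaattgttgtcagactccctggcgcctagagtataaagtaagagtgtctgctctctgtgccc
*Apoa2*, chr1:171224804-171225053, plus strand: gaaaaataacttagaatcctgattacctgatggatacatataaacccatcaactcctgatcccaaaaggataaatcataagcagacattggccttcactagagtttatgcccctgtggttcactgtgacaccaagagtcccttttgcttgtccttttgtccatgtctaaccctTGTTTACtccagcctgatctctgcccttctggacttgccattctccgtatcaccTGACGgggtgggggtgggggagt
The windows of *Mttp* and *Apoc2* overlap annotated exons, including those of *Trmt10a* and *Apoc4*. For these windows only the 30 bases around the TGACG match are shown, and the capitals mark that match alone, which reads CGTCA because it is on the opposite strand. The *Apoc2* stretch also opens with an AGGTCA match, left in lower case.
*Mttp*, chr3:138143429-138143458, minus strand: acttacggcttaCGTCAtcggactgcgcta
*Apoc2*, chr7:19678027-19678056, minus strand: aggtcaaccttcCGTCAtatctaggagtta

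The upstream stretches of *Creb3l3* and *Apob* held none of the letters searched. In *Apoa5* the capitals mark a single E-box flanked so that CCACG is read on both strands, 83 bases before the start site. TGACG was found in 4 of the 14 windows, of 4 genes (*Apoa2*, *Apoc2*, *Creb3l3* at a second, internal start site, and *Mttp*), and it was present in 20.8% of 32817 RefSeq promoter windows of the same length. The full TGACGT was found in 1 window, that of *Mttp*, 29 bases before the start site, and in 7.51% of all windows. CCACG was in 5 of the 14 windows (32.8% of all windows), AGGTCA in 3 (16.3%), GTAAACA in 2 (3.65%), CACGTG in 2, both of *Apoa5* and overlapping each other (7.15%), and CAAAGTCCA in 0 (0.475%). An AGGTCA window belongs to a second start site of *Apoa2* that lies within *Tomm40l*. A match describes the letters in these windows and is not a bound site.

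The apolipoprotein genes were among the most abundant mRNAs of the liver. By mean CPM, *Apoe* ranked 2 and *Apoa1* ranked 6 of all tested genes, and the 10 genes took 4.97% and 5.06% of all counts in the fasted WT libraries. Compared per length of the longest transcript, fasted WT liver had 13538 ± 1784 CPM per kb (SD, n = 2) of *Apoa1*, 12647 ± 804 of *Apoe* and 11286 ± 784 of *Apoa2*. The ranges of *Apoa1* and *Apoe* overlapped. On the same scale *Apoa4* followed at 3746 ± 314, *Apoc3* at 2048 ± 115, *Apoa5* at 1097 ± 12.3, *Apob* at 596 ± 17.9, *Apoc2* at 484 ± 63.7, *Creb3l3* at 226 ± 0.623 and *Mttp* at 184 ± 20.3 CPM per kb. None of these lower neighbours overlapped. *Apob*, with a 13934-nucleotide transcript of 29 exons, had 8308 ± 249 CPM (SD, n = 2) but only the seventh level per length. In refed WT liver *Apoe* came first at 11421 ± 443 CPM per kb, followed by *Apoa2* at 11259 ± 209 and *Apoa1* at 10017 ± 561, and the ranges of *Apoe* and *Apoa2* overlapped.

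**Figure D1:**
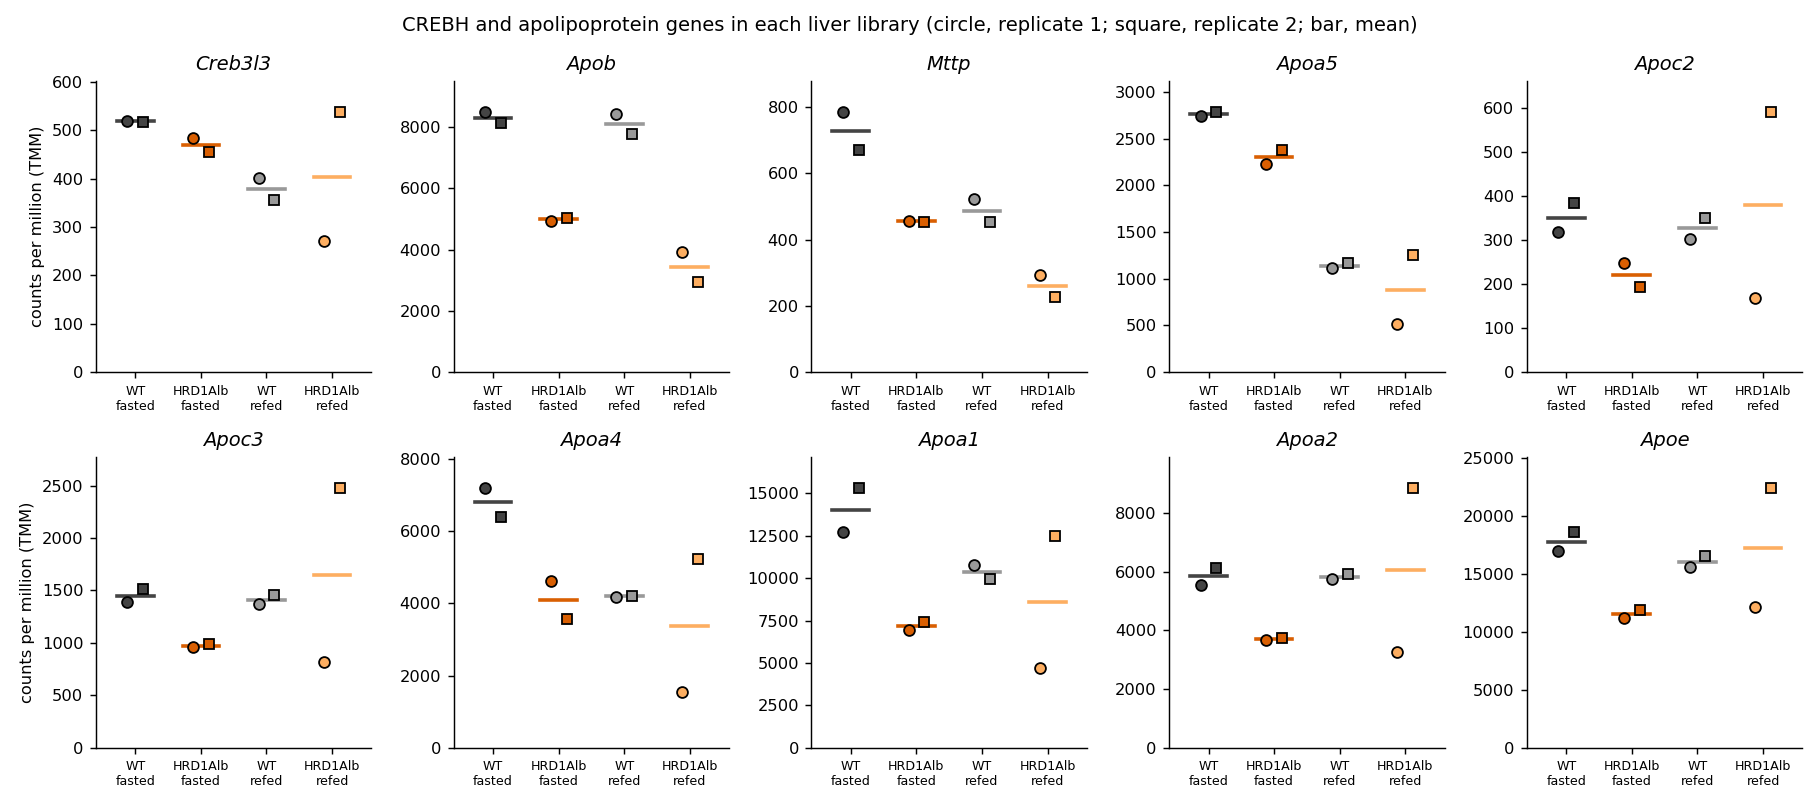
Level of each of the 10 genes in the 8 liver libraries, as TMM-scaled CPM on a linear axis from 0 for each gene. Circles are replicate 1, squares replicate 2 and bars the mean of the 2. In fasted liver both HRD1Alb libraries lie below both WT libraries for all 10 genes, and in refed HRD1Alb liver the square lies above both WT libraries for 8 genes and the circle below them for all 10.

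In fasted liver, all 10 genes had lower levels in both HRD1Alb libraries than in both WT libraries. Of all tested genes, 34.2% were lower in this way. The median log2 fold change of the 10 genes was -0.66, against -0.024 over all tested genes. Their share of all counts was 3.96% and 4.08% in the fasted HRD1Alb libraries. The share of the 50 most abundant genes of each library was also lower there. It was 31.9% and 31.3%, against 36.9% and 38.2% in the fasted WT libraries. In the edgeR quasi-likelihood test over all 8 samples 0 of 10 passed an adjusted p of 0.05 (1.35% of all genes did in either direction). At an unadjusted p under 0.05 there were 3, and DESeq2 called 2 (*Apob* and *Mttp*) and limma 0.

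Among the VLDL assembly genes, *Apob* was at 8484 and 8132 CPM in fasted WT and at 4937 and 5038 CPM in fasted HRD1Alb liver. *Mttp* was at 785 and 671 CPM in WT and at 456 and 454 CPM in HRD1Alb liver. The replicates of each group lay closer to each other than to the other genotype for both genes. The log2 fold changes were -0.74 (SE 0.202, adjusted p = 0.120 in edgeR) for *Apob* and -0.68 (SE 0.189, adjusted p = 0.122) for *Mttp*.

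Of the HDL genes, *Apoa1* was at 12706 and 15318 CPM in fasted WT and at 6946 and 7428 CPM in fasted HRD1Alb liver, the largest difference among the 10 in the edgeR fit at a log2 fold change of -0.96 (SE 0.411, adjusted p = 0.272). *Apoa2* was at 5559 and 6133 CPM in WT and at 3665 and 3756 CPM in HRD1Alb liver. Both genes were therefore well below WT in each HRD1Alb library. *Apoe*, the remnant ligand, was at 17007 and 18608 CPM in WT and at 11186 and 11903 CPM in HRD1Alb liver.

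For the genes that act on lipoprotein lipase the picture was mixed in size. *Apoc3*, its inhibitor, was at 1394 and 1510 CPM in fasted WT and at 957 and 991 CPM in fasted HRD1Alb liver. *Apoc2*, its cofactor, was at 319 and 384 CPM in WT and at 248 and 194 CPM in HRD1Alb liver. *Apoa4*, which forms part of newly made triglyceride-rich particles and HDL, was at 7201 and 6396 CPM in WT and at 4612 and 3557 CPM in HRD1Alb liver. These genes had log2 fold changes from -0.73 (*Apoa4*) to -0.58 (*Apoc3*). The difference was small for *Apoa5*, with 2738 and 2782 CPM in WT and 2226 and 2381 CPM in HRD1Alb liver, a log2 fold change of -0.26 (SE 0.366, adjusted p = 0.771). *Creb3l3* itself was at 519 and 517 CPM in WT and at 484 and 454 CPM in HRD1Alb liver, the smallest difference of the 10, with a log2 fold change of -0.14 (SE 0.295, adjusted p = 0.852).

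The fit over 8 samples takes its spread from all 4 groups, including the refed HRD1Alb pair. Without replicate 2 of that pair, 8 of the 10 genes passed in the fasted comparison (21.3% of all genes did), all lower in HRD1Alb, with adjusted p between 0.0100 (*Apoa1*) and 0.0285 (*Apoe*). Without replicate 1 of that pair the count was also 8 (21.7% of all genes), with adjusted p up to 0.0292. The genes that did not pass in either fit were *Creb3l3* and *Apoa5*. With the 4 fasted samples alone, 5 genes passed (14.6% of the genes tested there). Scaling by library totals alone moved the median of all genes by 0.38 in log2. Under it *Creb3l3* and *Apoa5* turned to 0.24 and 0.12, while the values of the other 8 genes stayed below 0. That scaling also raised the share of called genes that were higher in fasted HRD1Alb liver from 68.0% to 94.7% (79.7% with upper-quartile scaling, 56.9% with transcript-length offsets).

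**Figure D2:**
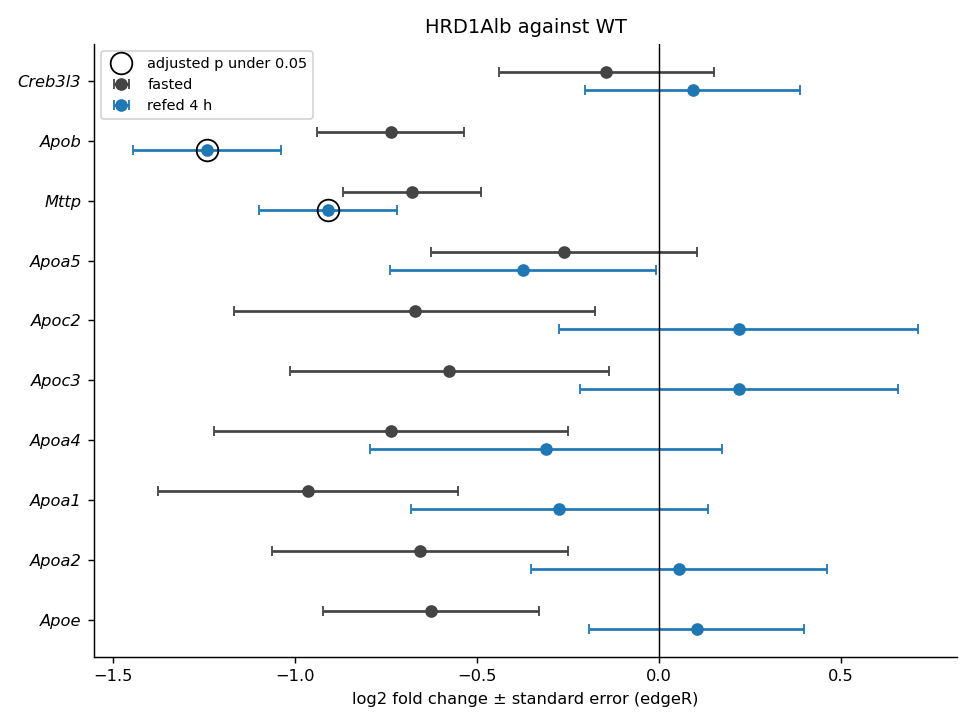
Log2 fold change of HRD1Alb against WT liver for the 10 genes, fasted and refed, with the standard error from edgeR as bars and a ring around genes with an adjusted p under 0.05. All 10 fasted values lie below 0, from -0.96 (Apoa1) to -0.14 (Creb3l3), and among the refed values the rings mark Apob at -1.24 and Mttp at -0.91.

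In refed liver, the VLDL assembly genes *Apob* and *Mttp* fell in HRD1Alb compared with WT, and they were the 2 of 10 genes past the threshold. Of all tested genes, 11.9% passed. They were also the 2 genes with both libraries labelled HRD1Alb below both WT libraries, which held for 30.1% of all genes. *Apob* was at 8412 and 7783 CPM in refed WT and at 3914 and 2942 CPM in refed HRD1Alb liver, with a log2 fold change of -1.24 (SE 0.204, adjusted p = 0.0164 in edgeR), a level 0.423 times that of WT. *Mttp* was at 522 and 453 CPM in WT and at 293 and 226 CPM in HRD1Alb liver, with a log2 fold change of -0.91 (SE 0.190, adjusted p = 0.0297). For both genes the higher HRD1Alb library stayed clearly below the lower WT library. With offsets for transcript length, the value of *Apob* shrank to -0.65 (adjusted p = 0.0517), whereas *Mttp* kept -0.81 (adjusted p = 0.0118). Without refed HRD1Alb replicate 2 the values were -1.05 (adjusted p = 0.00714) for *Apob* and -0.74 (adjusted p = 0.0165) for *Mttp*. Leaving out either fasted HRD1Alb or either refed WT library gave an adjusted p of 0.0520 to 0.122 for *Apob*, and leaving out any WT or fasted HRD1Alb library gave 0.0544 to 0.193 for *Mttp*, with both genes still lower.

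The other 8 genes depended on which refed library labelled HRD1Alb was read. In replicate 1 all 10 genes lay below both refed WT libraries, as did 42.8% of all tested genes. In replicate 2 only *Apob* and *Mttp* did, and the other 8 genes lay above both WT libraries, as did 46.1% of all genes. *Apoa1* was at 10779 and 9957 CPM in refed WT and at 4687 and 12463 CPM in the libraries labelled HRD1Alb. *Apoa4* was at 4191 and 4200.5 CPM in WT and at 1550.2 and 5218 CPM in HRD1Alb liver, and *Apoc3* was at 1372 and 1455 CPM in WT and at 813 and 2479 CPM in HRD1Alb liver. The WT libraries lay between both HRD1Alb libraries for each of these genes.

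The same split held for the rest. *Apoa2* was at 5756 and 5909 CPM in refed WT and at 3254 and 8861 CPM in HRD1Alb liver, and *Apoe* at 15639 and 16522 CPM in WT and at 12120 and 22447 CPM in HRD1Alb liver. *Apoa5* was at 1113 and 1164 CPM in WT and at 509 and 1248 CPM in HRD1Alb liver, and *Apoc2* at 302 and 351 CPM in WT and at 169 and 591 CPM in HRD1Alb liver. *Creb3l3* was at 402 and 356 CPM in WT and at 271 and 537 CPM in HRD1Alb liver. The edgeR log2 fold changes of these 8 genes ran from -0.37 (*Apoa5*, SE 0.366, adjusted p = 0.483) to 0.22 (*Apoc3*, SE 0.437, adjusted p = 0.736), each smaller than or close to its standard error.

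Among the members, the ratio between the 2 refed libraries differed between short and long transcripts, with exceptions. Replicate 2 over replicate 1 was 1.80 in log2 for *Apoc2* (727 nucleotides), 1.61 for *Apoc3* (709 nucleotides) and 1.45 for *Apoa2* (518 nucleotides). It was 0.99 for *Creb3l3* (2294 nucleotides), -0.38 for *Mttp* (3963 nucleotides) and -0.41 for *Apob* (13934 nucleotides). It was 1.41 for *Apoa1* (1035 nucleotides) and 0.89 for *Apoe* (1408 nucleotides). The 8 shorter transcripts were thus higher and the 2 longest lower in replicate 2, without a strict order by length among the 8. A smooth trend over all genes with a known length put that library 1.24 above the average library at the length of *Apoa2* and 0.91 below it at the length of *Apob*, in log2. Ratios far from the trend of that library were found for *Apoa4* (1815 nucleotides), 1.75 against 0.41, and *Apoa5* (2515 nucleotides), 1.29 against 0.14. The ratios of *Creb3l3*, 0.99 against 0.22, and *Apoc2*, 1.80 against 1.09, were also well above it. So were those of *Apoa1*, 1.41 against 0.87, *Apoc3*, 1.61 against 1.10, and *Apob*, -0.41 against -0.91. For *Apob* the trend was thus farther from 0 than its own ratio. Closer to the trend were *Apoe*, 0.89 against 0.63, *Apoa2*, 1.45 against 1.24, and *Mttp*, -0.38 against -0.19. With offsets for this trend, *Apoa1*, *Apoa2*, *Apoc3* and *Mttp* passed in refed liver, all lower in HRD1Alb, with log2 fold changes of -0.90, -0.81, -0.59 and -0.81 (adjusted p from 0.0118 to 0.0461, 18.3% of all genes). Without replicate 2, 9 of 10 genes passed (23.7% of all genes), all lower, from -1.44 (SE 0.211) for *Apoa4* to -0.49 (SE 0.131) for *Creb3l3*. Without replicate 1, 6 passed (52.8% of all genes): *Apob* and *Mttp* were lower at -1.47 and -1.11, and *Apoa2*, *Apoc2*, *Apoc3* and *Creb3l3* were higher at 0.60, 0.85, 0.80 and 0.50. In both of these fits a single library stands for refed HRD1Alb liver and is assumed to vary like the other groups. The library kept when replicate 2 is left out is replicate 1, whose *Syvn1* level (453 CPM) lay between the refed WT libraries. *Apob* and *Mttp* were thus the genes with the same direction and call in both fits.

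**Figure D3:**
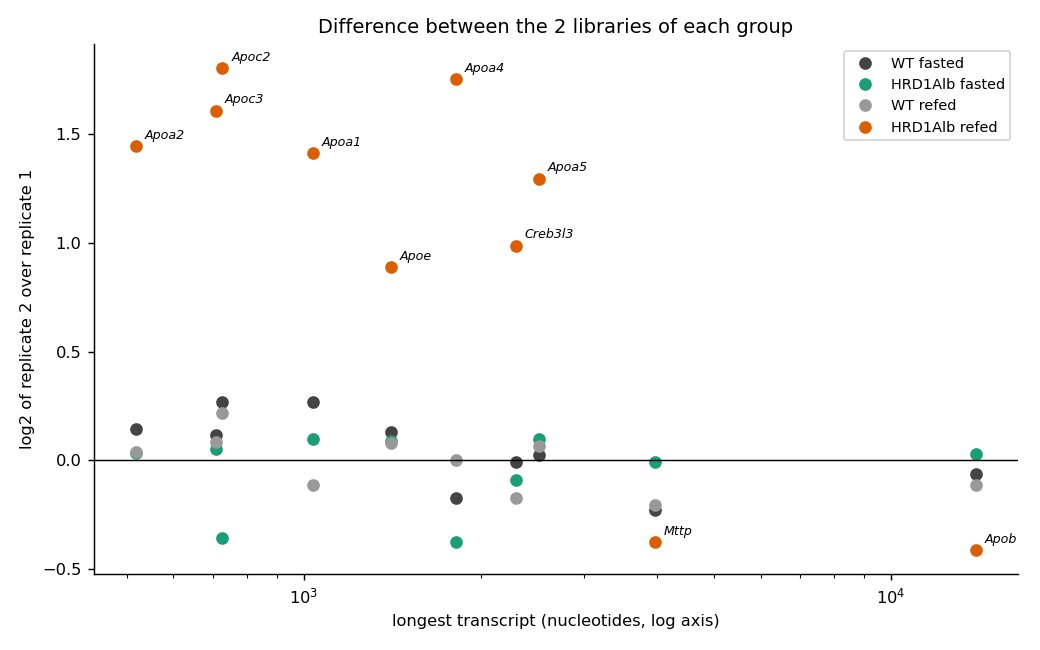
Log2 ratio of replicate 2 to replicate 1 in each group, for the 10 genes, against the length of the longest transcript in nucleotides on a log axis. In the refed HRD1Alb group (orange, named) the ratios run from 1.80 for Apoc2 down to -0.41 for Apob, while in the other 3 groups they stay between -0.37 and 0.27.

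In WT liver, the levels of 6 genes were lower in both refed libraries than in both fasted ones (29.6% of all tested genes were), and those of the other 4 overlapped. *Apoa5* differed most. It was at 2738 and 2782 CPM in fasted and at 1113 and 1164 CPM in refed WT liver, a log2 fold change of -1.28 (SE 0.371, adjusted p = 0.139 in edgeR). *Creb3l3* was at 519 and 517 CPM when fasted and at 402 and 356 CPM when refed, a log2 fold change of -0.45 (SE 0.295, adjusted p = 0.534). The replicates of either gene were within 1.13 times of each other in WT liver. The remaining 4 of the 6 were *Mttp* (log2 fold change -0.58, SE 0.189), *Apoa4* (-0.70, SE 0.486), *Apoa1* (-0.43, SE 0.408) and *Apoe* (-0.15, SE 0.295). Values near 0 were found for *Apob* (-0.037), *Apoc2* (-0.11), *Apoc3* (-0.039) and *Apoa2* (-0.0035).

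None of the 10 genes passed the edgeR test for refeeding in WT liver (2.61% of all genes did in either direction). At an unadjusted p under 0.05 there were 2, and DESeq2 called 1 (*Apoa5*, adjusted p = 0.0160) and limma 0. Without either refed HRD1Alb library, which is not part of this comparison, *Apoa5*, *Mttp*, *Creb3l3* and *Apoa4* passed, all lower after refeeding (17% to 17.2% of all genes). Their adjusted p without replicate 2 was 0.00106, 0.0200, 0.0272 and 0.0289. Scaling by library totals alone raised the median of all genes by 0.15 in log2 and the share of called genes that were higher after refeeding from 46.0% to 68.1%, and the signs of *Apoa2*, *Apob*, *Apoc2*, *Apoc3* and *Apoe* turned under it.

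**Figure D4:**
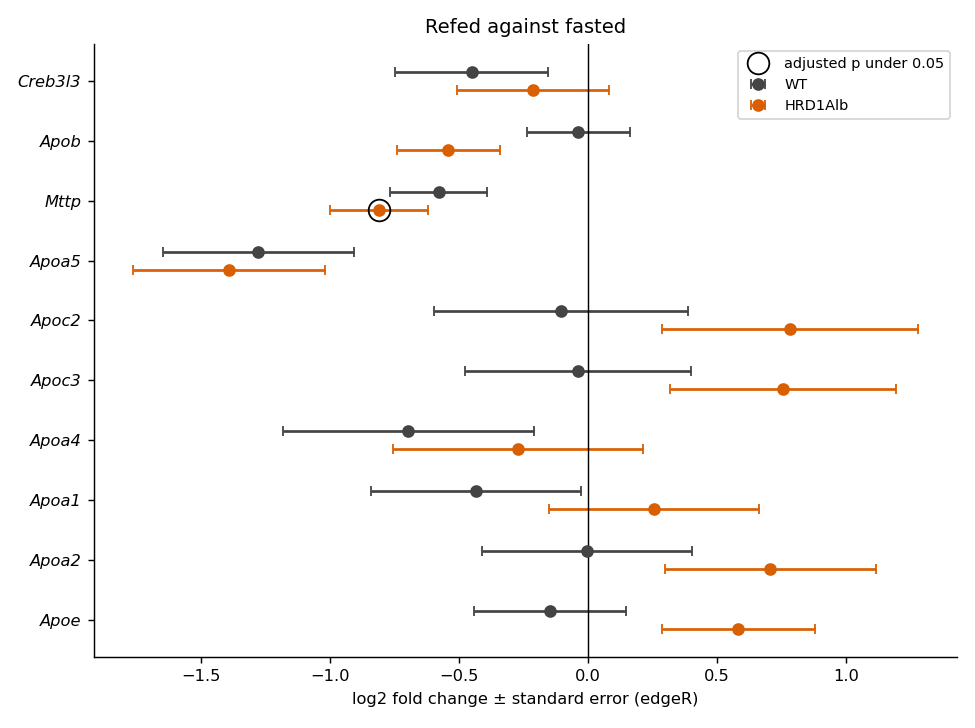
Log2 fold change of refed against fasted liver for the 10 genes in WT and HRD1Alb mice, with the standard error from edgeR as bars and a ring around genes with an adjusted p under 0.05. Apoa5 has the lowest value in both genotypes (-1.28 and -1.39), and the ring marks Mttp in HRD1Alb liver at -0.81.

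In HRD1Alb liver, *Mttp* fell after refeeding and was the 1 gene of the 10 to pass (10.5% of all genes did). It went from 456 and 454 CPM to 293 and 226 CPM, a log2 fold change of -0.81 (SE 0.189, adjusted p = 0.0396 in edgeR). The pairs did not overlap, but leaving out any 1 library other than the refed HRD1Alb ones gave an adjusted p of 0.0728 to 0.221. *Apoa5* went from 2226 and 2381 CPM to 509 and 1248 CPM, a log2 fold change of -1.39 (SE 0.372, adjusted p = 0.0564). *Apob* was the third gene lower without overlap, a pattern that 29.5% of all genes shared. *Apoe* was the 1 gene higher without overlap (29.2% of all genes), from 11186 and 11903 CPM to 12120 and 22447 CPM, and it had a log2 fold change of 0.58 (SE 0.296, adjusted p = 0.216). That value rested on replicate 2 of the refed group and was 0.070 (adjusted p = 0.826) without it. Without replicate 2 of the refed group, *Apoa5* (-2.18), *Apoa4* (-1.40), *Creb3l3* (-0.79) and *Mttp* (-0.63) passed and all were lower (19.7% of all genes), while *Apob* was at -0.35 (adjusted p = 0.178). Without replicate 1, 8 genes passed (51.4% of all genes), of which *Apoa5*, *Apob* and *Mttp* were lower and *Apoa1*, *Apoa2*, *Apoc2*, *Apoc3* and *Apoe* higher. *Apoa5* and *Mttp* were lower and past the threshold in both fits, at -0.89 and -1.01 in the second.

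The interaction of genotype and feeding was past the threshold for 0 of 10 genes, as for 0% of all genes in edgeR, with 0 of the 10 at an unadjusted p under 0.05 and 0 by DESeq2 or limma. The interaction values ran from -0.50 (*Apob*, SE 0.284) to 0.89 (*Apoc2*, SE 0.698) in log2. Without refed HRD1Alb replicate 1, 8 of 10 passed (33.4% of all genes), and without replicate 2 none did (0.69% of all genes), so the interaction could not be read apart from the choice of library.

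Genes whose pattern over the 8 libraries was most like that of *Creb3l3* were sought among 8025 other genes with a mean of at least 10 CPM, by the root mean square difference of log2 CPM centred on each gene's mean. The nearest was *Hsd17b13*, which encodes a lipid droplet protein of hepatocytes, with a difference of 0.0659 against a median of 0.469 over the genes compared. It was at 648 and 711 CPM in fasted WT, 597 and 552 CPM in fasted HRD1Alb, 520 and 441 CPM in refed WT, and 319 and 642 CPM in refed HRD1Alb liver. *Hsd17b11* (0.0860), *Gins4* (0.0920), *C030044B11Rik* (0.102) and *Cblc* (0.107) came next. Among the members *Apoe* was nearest to *Creb3l3* at 0.339 and *Apob* farthest at 0.608. Without refed HRD1Alb replicate 2, *Hsd17b11* was nearest (0.0348) and *Hsd17b13* ranked 5 (0.0662), while *Mttp* was the nearest member (0.225) and *Apoa5* the farthest (0.542). *Gins4*, *C030044B11Rik* and *Cblc* then ranked 10, 48 and 73, and *Helz*, *Pex19* and *Man2a1* ranked 2, 3 and 4.

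Of 11 other genes linked to CREBH in liver, 6 fell and 0 rose on refeeding in WT liver. In HRD1Alb liver 7 fell and 1 rose, namely *Hamp* (1.88, SE 0.168, adjusted p = 0.00390 in edgeR). The median log2 fold changes of the 11 genes were -1.22 in WT and -1.55 in HRD1Alb liver, against 0.0013 and 0.022 over all genes. Of all tested genes, 1.41% fell and 1.2% rose on refeeding in WT, and 5.05% fell and 5.43% rose in HRD1Alb liver. In the refed genotype comparison, 7.09% of all genes rose and 4.84% fell, and the counts of this and the following lists stand beside these shares. In refed HRD1Alb compared with refed WT liver, 2 rose and 4 fell. *Fgf21*, a hormone of the fasted liver, was at 14.1 and 14.6 CPM in fasted WT, 53.1 and 59.4 CPM in fasted HRD1Alb, 1.53 and 2.21 CPM in refed WT, and 25.6 and 21.9 CPM in refed HRD1Alb liver. It rose in HRD1Alb liver in both states, with log2 fold changes of 1.97 (SE 0.206, adjusted p = 0.0156) fasted and 3.67 (SE 0.228, adjusted p = 0.00148) refed. *Ppara*, which encodes the fatty acid-sensing nuclear receptor, fell in refed HRD1Alb liver (log2 fold change -1.69, SE 0.178, adjusted p = 0.00817) and after refeeding in both genotypes. *Hamp*, which encodes the iron hormone hepcidin, rose in refed HRD1Alb liver (1.14, SE 0.165, adjusted p = 0.0129), and *Pck1*, a gluconeogenic enzyme gene, fell there (-0.84, SE 0.194, adjusted p = 0.0376). These calls on *Fgf21*, *Ppara*, *Hamp* and *Pck1* also held without refed HRD1Alb replicate 2.

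Of 17 genes of the CREB3 family and its processing, 1 rose and 1 fell in refed HRD1Alb liver. *Creb3*, a relative of *Creb3l3*, rose from 49.7 and 45.0 CPM in refed WT to 100.4 and 137 CPM (log2 fold change 1.32, SE 0.186, adjusted p = 0.0121). In fasted liver 0 of the 17 passed in edgeR, with 4 at an unadjusted p under 0.05 and 1 by DESeq2. *Insig2*, which holds membrane-bound lipid regulators in the endoplasmic reticulum, fell on refeeding in both genotypes (-2.28 in WT and -2.06 in HRD1Alb liver), and *Atf6b*, a membrane-bound stress factor, rose on refeeding in HRD1Alb liver (1.11, SE 0.166, adjusted p = 0.0119).

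Of 25 genes of VLDL assembly and secretion besides *Apob* and *Mttp*, 1 rose and 1 fell in refed HRD1Alb liver, a share below that of all genes. The gene that fell was *Cideb*, which promotes the lipidation of VLDL, from 47.7 and 48.9 CPM in WT to 27.2 CPM in both HRD1Alb libraries (log2 fold change -0.83, SE 0.143, adjusted p = 0.0190). *Plin2*, a lipid droplet coat gene, *Pnpla2*, a triglyceride lipase gene, and *Lpcat3*, a phospholipid remodelling enzyme gene, fell on refeeding in both genotypes, with log2 fold changes of -1.74, -1.37 and -1.08 in WT liver. The median of the 25 was 0.014 in refed and -0.082 in fasted liver for the genotype difference, beside -1.24 and -0.91 in refed and -0.74 and -0.68 in fasted liver for *Apob* and *Mttp*.

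Of 23 tested genes of lipases, receptors and lipoprotein remodelling, 3 rose and 3 fell in refed HRD1Alb liver. *Lpl*, the lipase that ApoC-II and ApoA-V support, rose in HRD1Alb liver from 21.8 and 33.5 CPM to 107 and 111 CPM when fasted (log2 fold change 1.98, SE 0.256, adjusted p = 0.0266) and from 17.9 and 25.1 CPM to 143 and 129 CPM when refed (2.66, SE 0.262, adjusted p = 0.00691). *Angptl4*, a lipase inhibitor, rose in refed HRD1Alb liver from 20.3 and 20.8 CPM to 60.4 and 69.2 CPM (1.66, SE 0.210, adjusted p = 0.0105). *Abcg5* and *Abcg8*, which together export sterols, fell on refeeding in HRD1Alb liver (-1.19 and -1.80), and *Abcg8* also did in WT liver (-1.27).

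Of 26 transcription factors and co-regulators of apolipoprotein genes, 1 rose and 5 fell in refed HRD1Alb liver, *Ppara* among the latter, and their median was -0.53. In fasted liver 0 passed in edgeR, with 6 at an unadjusted p under 0.05, 1 by DESeq2 and 0 by limma. *Nr1d1*, the clock repressor REV-ERBα, rose on refeeding in both genotypes and fell in refed HRD1Alb compared with refed WT liver (-1.11, SE 0.189, adjusted p = 0.0182). *Ppargc1a*, which encodes a transcriptional co-activator of the fasting response, fell on refeeding in HRD1Alb liver (-2.73).

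Of 13 tested other apolipoprotein genes, 3 rose on refeeding in HRD1Alb liver, namely *Apol7a*, *Apol9a* and *Apol9b*, and *Apol7a* was the 1 that rose in WT liver (1.82, SE 0.246, adjusted p = 0.0226). *Saa4*, a serum amyloid A apolipoprotein of HDL, fell in refed HRD1Alb liver, from 189 and 267 CPM in WT to 74.1 and 109.8 CPM (-1.31, SE 0.272, adjusted p = 0.0296). In fasted liver 0 of the 13 passed in edgeR, with 2 at an unadjusted p under 0.05 and 0 by DESeq2 or limma, and their median was -0.50.

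Without refed HRD1Alb replicate 2, the median log2 fold change over all genes was 0.0023 in the refed genotype comparison. It was -0.72 for the 11 genes linked to CREBH, -0.043 for the CREB3 family list and 0.063 for the VLDL list. For the lipase and receptor list it was -0.45, for the transcription factor list -0.53, and for the other apolipoprotein genes -0.72. Each call given above for a named gene of these lists in refed HRD1Alb liver held in the same direction without that library, and the value of *Apol9b* on refeeding in HRD1Alb liver went from 1.43 to 0.77. Both refed HRD1Alb libraries enter the spread used in the fasted comparison. Without replicate 2, the fasted genotype median was -0.022 over all genes and -0.44 for the genes linked to CREBH. It was -0.16 for the CREB3 family list, -0.085 for the VLDL list and -0.029 for the lipase and receptor list. For the transcription factors it was -0.29, and for the other apolipoprotein genes -0.50.

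The members lie partly in clusters. On chromosome 9 (GRCm38, GENCODE M21) *Apoa1* spans 46228580 to 46230466, *Apoc3* 46232933 to 46235636 on the opposite strand, *Apoa4* 46240696 to 46243459 and *Apoa5* 46268633 to 46271919. On chromosome 7, *Apoc2* spans 19671579 to 19677941 and *Apoe* 19696109 to 19699188, with *Apoc4* and *Apoc1* between them. *Apoc1* and *Apoc4* had log2 fold changes of -0.30 and -0.41 in fasted and 0.41 and 0.50 in refed HRD1Alb liver, with the same signs as *Apoc2* and *Apoe*, and neither passed. Without refed HRD1Alb replicate 2 their refed values turned to -0.33 and -0.57. Of 13 tested neighbours of both clusters, 0 passed in fasted liver in edgeR (3 at an unadjusted p under 0.05, 1 by DESeq2, 0 by limma), and 2 rose in refed HRD1Alb liver, *Tagln* (1.39) and *Relb* (1.61). Without refed HRD1Alb replicate 2, the median genotype difference of the neighbours was -0.12 in fasted and -0.26 in refed liver. Over all genes it was -0.022 and 0.0023. *Sik3*, next to *Apoa1*, had values of -0.12 fasted and -0.48 refed for the genotype difference, and fell on refeeding in HRD1Alb liver (-1.05, SE 0.269, adjusted p = 0.0493, and -0.69 without refed HRD1Alb replicate 2). Exons of *Apoa4*, *Apoa5* and *Mttp* overlap genes annotated on the opposite strand, by 34.8%, 20.8% and 7.36% of their exonic length for the overlaps with *Gm10680*, *Gm47544* and *Trmt10a*. *Apoc2* shares 79.5% of its exonic length with *Gm44805* on its own strand. These 4 overlapping genes were not found by these symbols among the counted genes. Whether counting used strand is not stated, and for *Apoc2* strand could not separate the reads.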

How the data were processed

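The members, the gene lists and the promoter motifs were chosen with earlier results of these data known. Per the study's methods, libraries were sequenced on an Illumina NextSeq, 1 lane per sample, and reads were counted per gene with ERANGE. The submitters' processing notes instead list cutadapt, STAR, HTSeq, DESeq2 and the build mm10, and versions are not given in the sources used here. The deposited values are whole-number counts per gene symbol, without normalization, 1 file per sample. Groups and replicate numbers were taken from the sample labels, and no batch is labelled.

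Differential expression was tested in edgeR 4.0.16 (R 4.3.3). Genes kept by filterByExpr (minimum count 10, minimum total 15) were normalized by TMM, and 1 quasi-likelihood model with 4 group means was fitted to the 8 samples (4 residual degrees of freedom, common dispersion 0.0573). Within each contrast, Benjamini-Hochberg adjustment ran over all 14328 tested genes, with calls at 0.05. With 2 samples a group, exact permutation gives no p under 0.333, so adjusted p-values rest on the spread shared across genes. Total counts ranged from 40210576 to 49117080, where 3 counts equal 0.0508 to 0.0788 CPM. Counting error only is covered by that floor.

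Alternatives were RLE, upper-quartile and library-total scaling, DESeq2 1.42.0, limma-trend (limma 3.58.1), other filters, the 4 samples of a contrast alone, a replicate block, offsets from a loess trend (span 0.3) on transcript length, and each sample left out. Counts of members without overlap under other scalings, and the search for genes like *Creb3l3* without refed HRD1Alb replicate 2, were added after the data were seen. Genes named from each list were those past the threshold in any pairwise contrast, at most 4 by smallest adjusted p, all members, *Syvn1*, 5 genes most like *Creb3l3* and neighbours in the clusters. A gene that this rule named is not reported here. Fits were tested on simulated data. Positions and lengths are from GENCODE M21 (GRCm38), matched by symbol for 90.5% of tested genes, and promoter sequences from RefSeq (GRCm38.p6), matched for 9 members. Protein sequences were not used here.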

Additional observations from a re-analysis of the deposited data

Results flagged for a closer look

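*Apoe* was marked because its 2 refed WT libraries lay below both fasted WT libraries while both refed libraries labelled HRD1Alb lay above both fasted HRD1Alb libraries. The interaction in edgeR was 0.73 on the log2 scale (SE 0.418, adjusted p = 0.616), so the difference between the genotypes did not pass the test. It was 0.22 with the lowest and 1.10 with the highest of the alternatives. No test for a deviating sample applies to groups of 2.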

How the results depend on the processing

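Of 940 log2 fold changes of the members recomputed under alternatives, 779 kept their direction and their side of the threshold, 77 newly passed it, 22 no longer passed it and 62 turned sign. Counts of members called moved as follows. In the fasted genotype comparison, where 0 passed, DESeq2 gave 2, the 4 samples alone 5, and transcript-length offsets 3, with or without a replicate block, and leaving out 1 library gave 0 to 8. In the refed genotype comparison, where 2 passed, library totals alone gave 1, the 4 samples alone 0, length offsets 4, those with the replicate block 5, and leaving out 1 library 0 to 9. For refeeding in WT, where 0 passed, DESeq2 gave 1, the 4 samples alone 3, length offsets with the replicate block 1, and leaving out 1 library 0 to 4. For refeeding in HRD1Alb, where 1 passed, DESeq2 gave 3, limma-trend 2, no filter 2, the 4 samples alone 0, the replicate block 2, length offsets 2, those with the block 2, and leaving out 1 library 0 to 8. The interaction gave 0 to 8 when 1 library was left out. Members lower without overlap in the refed genotype comparison numbered 2 without refed HRD1Alb replicate 1, a pattern that 45.7% of all genes shared. Without replicate 2 they numbered 10, and 42.8% of all genes were lower in this way. For refeeding in HRD1Alb they numbered 3 to 9, depending on which of these libraries was left out. The share of all genes was not computed there. The cause of these moves was not tested, other than that fits on 4 samples or without a library rest on fewer samples.

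Signs that turned, on the log2 scale, were these. With library totals alone, *Creb3l3* became 0.24 and *Apoa5* 0.12 in the fasted genotype comparison, and *Apoa2* 0.15, *Apob* 0.11, *Apoc2* 0.046, *Apoc3* 0.11 and *Apoe* 0.0026 for refeeding in WT. With limma-trend, *Apoa2* became -0.12 and *Apoc2* -0.042 in the refed genotype comparison, and with upper-quartile scaling *Apoa2* became 0.013 for refeeding in WT. With the replicate block, *Apoa2* became -0.039 in the refed genotype comparison and 0.0038 for refeeding in WT. With length offsets, and with those plus the replicate block, the refed genotype values became -0.064 and -0.082 for *Creb3l3*, -0.81 and -0.81 for *Apoa2*, -0.61 and -0.63 for *Apoc2*, -0.59 and -0.60 for *Apoc3*, and -0.31 and -0.31 for *Apoe*. The same fits gave 0.038 and 0.042 for *Apob* for refeeding in WT and 0.069 and 0.055 for *Apob* in the interaction. For refeeding in HRD1Alb they gave -0.42 and -0.43 for *Apoa1*, -0.18 and -0.18 for *Apoa2*, 0.11 and 0.096 for *Apob*, -0.083 and -0.11 for *Apoc2*, and -0.086 and -0.095 for *Apoc3*.

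With 1 library left out at a time, refed genotype values ranged from -1.15 to 0.26 for *Apoa1*, -1.44 to 0.31 for *Apoa4*, -1.17 to 0.13 for *Apoa5*, -0.49 to 0.50 for *Creb3l3*, -0.85 to 0.60 for *Apoa2*, -0.95 to 0.85 for *Apoc2*, -0.80 to 0.80 for *Apoc3* and -0.41 to 0.47 for *Apoe*. For refeeding in WT they ranged from -0.073 to 0.099 for *Apoa2*, -0.23 to 0.066 for *Apoc2*, -0.095 to 0.050 for *Apoc3* and -0.10 to 0.018 for *Apob*. For refeeding in HRD1Alb they ranged from -0.79 to 0.19 for *Creb3l3*, -1.40 to 0.35 for *Apoa4*, -0.62 to 0.79 for *Apoa1*, -0.19 to 1.25 for *Apoa2*, -0.38 to 1.42 for *Apoc2* and -0.26 to 1.34 for *Apoc3*. In the interaction they ranged from -0.90 to 0.39 for *Apoa5*, -0.34 to 0.64 for *Creb3l3*, -0.18 to 1.23 for *Apoa1*, -0.19 to 1.26 for *Apoa2*, -0.70 to 1.05 for *Apoa4*, -0.28 to 1.52 for *Apoc2* and -0.22 to 1.38 for *Apoc3*.

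The labels do not state whether replicate numbers pair the samples. Deviations of same-numbered samples correlated with r from 0.0161 to 0.179 across genes over 6 pairs of groups. Weak correlations of this kind cannot exclude a pairing. Scaling by library totals alone also raised the share of called genes higher in refed HRD1Alb liver from 59.45% to 87.5%, against 68.0% with upper-quartile scaling.
Over all genes, the calls in edgeR, in DESeq2, and without refed HRD1Alb replicate 2 or 1 numbered 194, 1094, 3118 and 3159 for the fasted genotype comparison, 1709, 3190, 3466 and 7705 for the refed one, 374, 1086, 2493 and 2508 for refeeding in WT, 1501, 2921, 2884 and 7496 for refeeding in HRD1Alb, and 0, 105, 101 and 4878 for the interaction, which had 1209 genes at an unadjusted p under 0.05. With the 4 samples of a contrast alone, the calls numbered 2033, 0, 1882 and 0 for the first 4 of these.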
